A study of Mus musculus with 27 samples.

Results

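The immediate early genes Fos, Fosb, Jun, Junb, Egr1, Atf3, Ier2 and Dusp1 and the heat-inducible Hsp70 genes Hspa1a and Hspa1b were followed in freshly sorted Prx1 cells of the mouse. They were chosen by symbol and make up 10 of the 30154 entries of a table of normalized read counts, and all 10 passed the filter on low values that left 18439 genes. Bulk RNA-sequencing covered 3 libraries of each of 9 groups, which were the P1, P2 and P3 subpopulations of the muscle around the femur and of the periosteum and bone marrow of femur and tibia. All animals were Prx1-CreER/Ai14/Rag1 mice of both sexes aged 8 to 12 weeks that had received 2 tamoxifen injections, with the last 3 days before harvest, so every group carried the tdTomato reporter, the mutant Rag1 allele and the drug. The CreER is driven by the promoter of Prx1, a gene of limb mesenchyme, and tdTomato therefore marks Prx1 cells together with their progeny. P1 cells were CD105- CD200+, P2 cells CD105- CD200-, and P3 cells CD105+ with variable CD200, and each was Prx1+ and CD45-. Muscle was digested with collagenase for 60 minutes and periosteum for 20 minutes, whereas bone marrow was flushed out of the bone, with no digestion step given for it. Tissue and digestion time thus cannot be told apart in any comparison between tissues. The series describes its tissues as taken from the same animals but does not tie a library to an animal, so the p-values measure the spread between libraries, which may be smaller than that between mice.

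Immediate early genes are switched on within minutes of a growth factor, injury or stress signal, through transcription factors that are already present in the cell. Fos and Jun proteins join into AP-1, a dimer that binds DNA, while Dusp1 removes phosphate from MAP kinases and so ends the signal that induced it. Inducible Hsp70 is a chaperone that holds unfolded proteins, and its genes are turned on by heat shock factor HSF1. Both sets of genes are also known to be induced in cells while a tissue is being dissociated.

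The promoters of 8 of the genes were found in the RefSeq table of GRCm38.p6. The 250 bases before the start of Hspa1a and Hspa1b are shown because this near-identical pair gave the clearest difference between muscle and periosteum. Those of Fos, Dusp1 and Atf3 are shown as immediate early promoters with distinct elements. Capitals mark GAANNTTC, the core of a heat shock element, and CCAAT, read as ATTGG on the other strand, in the Hsp70 genes. In the remaining 3 they mark TGACG or its reverse CGTCA, the core of a cyclic AMP response element, the full element TGACGTCA, and the TATA box TATAAA.
Hspa1a (chr17:34972157-34972406, minus strand): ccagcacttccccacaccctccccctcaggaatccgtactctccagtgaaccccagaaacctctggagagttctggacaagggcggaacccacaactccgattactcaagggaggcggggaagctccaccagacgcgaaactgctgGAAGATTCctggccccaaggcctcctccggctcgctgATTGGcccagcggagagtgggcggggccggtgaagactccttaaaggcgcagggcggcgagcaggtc
Hspa1b (chr17:34959239-34959488, minus strand): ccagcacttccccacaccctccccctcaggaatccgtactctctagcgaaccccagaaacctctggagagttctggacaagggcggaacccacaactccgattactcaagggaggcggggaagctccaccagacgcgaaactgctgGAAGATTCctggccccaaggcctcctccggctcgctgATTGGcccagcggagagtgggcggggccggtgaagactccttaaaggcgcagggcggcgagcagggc
Fos (chr12:85473640-85473889, plus strand): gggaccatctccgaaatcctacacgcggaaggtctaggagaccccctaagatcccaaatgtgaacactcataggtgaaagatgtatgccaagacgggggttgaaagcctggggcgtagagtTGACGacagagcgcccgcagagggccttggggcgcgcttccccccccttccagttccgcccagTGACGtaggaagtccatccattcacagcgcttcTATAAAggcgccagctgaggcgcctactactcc
Dusp1 (chr17:26508473-26508722, minus strand): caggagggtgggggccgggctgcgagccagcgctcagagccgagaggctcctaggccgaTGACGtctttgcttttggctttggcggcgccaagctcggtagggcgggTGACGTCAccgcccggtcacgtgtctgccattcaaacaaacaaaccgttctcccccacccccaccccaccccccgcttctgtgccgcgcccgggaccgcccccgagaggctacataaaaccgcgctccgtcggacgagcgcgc
Atf3 (chr1:191183334-191183583, minus strand): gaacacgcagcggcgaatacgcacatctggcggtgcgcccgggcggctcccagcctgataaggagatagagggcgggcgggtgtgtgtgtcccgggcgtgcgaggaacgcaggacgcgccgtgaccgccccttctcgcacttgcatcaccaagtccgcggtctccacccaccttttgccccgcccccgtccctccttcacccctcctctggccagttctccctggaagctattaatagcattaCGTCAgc

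The promoters of Hspa1a and Hspa1b differed at 3 of 250 bases, and each held GAANNTTC at 104 bases before the start and CCAAT at 67 bases. Among the immediate early genes, GAANNTTC was also present in Jun, at 128 bases. This motif occurs in 6.69% of the 32851 promoters of the table, and CCAAT in 33.8%. TGACG was found on either strand in Fos, Fosb, Junb, Atf3 and Dusp1, against 17.8% of all promoters, and TGACGTCA, which contains it, in Dusp1 alone of the 8, against 1.55%. The AP-1 site TGANTCA, the alternate heat shock core TTCNNGAA and the CArG box were in none of the 8 windows of 250 bases. Sequence further from the start was not searched, so these genes may hold such elements there. A match to these letters is a description and does not show binding.

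Library sums ran from 8629960 to 26229400 normalized counts, with 12393 to 21673 genes above 0, and replicates of a group correlated at Pearson's r of 0.631 to 0.955 over the genes tested. The P2 gates stood apart. Of a list of 12 limb mesenchyme markers, all were detected in every group, but together they took 0.0106% to 0.0458% of a bone marrow P2 library against 27.2% to 39.99% of a bone marrow P1 library. A list of 10 erythroid genes made up 46.2% to 49.7% of bone marrow P2 and 25.2% to 40.5% of periosteum P2, and none of the 10 was at 0 throughout either group. In muscle P2, a list of 10 myofibre genes took 11.9% to 13.4% of the total, against at most 0.451% in the other muscle groups. Values in P2 are therefore those of what the gate held, and the part these transcripts played in the differences was not tested. In bulk samples, fewer cells of a type and less RNA per cell cannot be told apart.

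The inducible Hsp70 genes separated muscle from both other tissues. Hspa1a (ENSMUSG00000091971, chr17:34969190-34972156, minus strand) and Hspa1b (ENSMUSG00000090877, chr17:34956436-34959238, minus strand) are neighbours on chromosome 17 in GRCm38, and both encode the stress-inducible chaperone. Their transcripts share 58.8% of the 50-base stretches of Hspa1a and 62.3% of those of Hspa1b, and the coding sequences of 1923 and 1926 bases are 10 edits apart. How reads that fit both were counted is not given in the sources used here, so the division between the genes is uncertain and their sum is the safer value. In muscle, Hspa1b stood at 130204, 138872 and 91246 normalized counts in the P1 libraries, 55381, 50941 and 42269 in P2, and 142490, 190233 and 104612 in P3. In periosteum, the P1 libraries had 6684, 5498 and 3913, the P2 libraries 3239, 1647 and 7077, and the P3 libraries 4473, 4876 and 4338. Bone marrow libraries had 880.2, 109.7 and 325.0 in P1, 511.0, 50.4 and 12.8 in P2, and 919.1, 202.2 and 1140 in P3. The 3 tissues did not overlap for Hspa1b, and the lowest muscle library was above the highest periosteum library.

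Hspa1a followed the same order of tissues. Its muscle values were 72245, 86883 and 53528 normalized counts in P1, 32285, 25089 and 20986 in P2, and 91517, 113782 and 61268 in P3. Periosteum gave 5424, 3732 and 3229 in P1, 3533, 383.6 and 4855 in P2, and 5348, 3721 and 3151 in P3. In bone marrow the values were 822.8, 299.0 and 426.1 in P1, 427.1, 5.61 and 22.5 in P2, and 403.3, 173.5 and 429.2 in P3. Muscle lay above all other libraries, while the second periosteum P2 library fell inside the bone marrow range. That library also had the largest ratio of Hspa1b to Hspa1a in periosteum, 4.29, where muscle kept the ratio between 1.56 and 2.03.

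**Figure D1:**
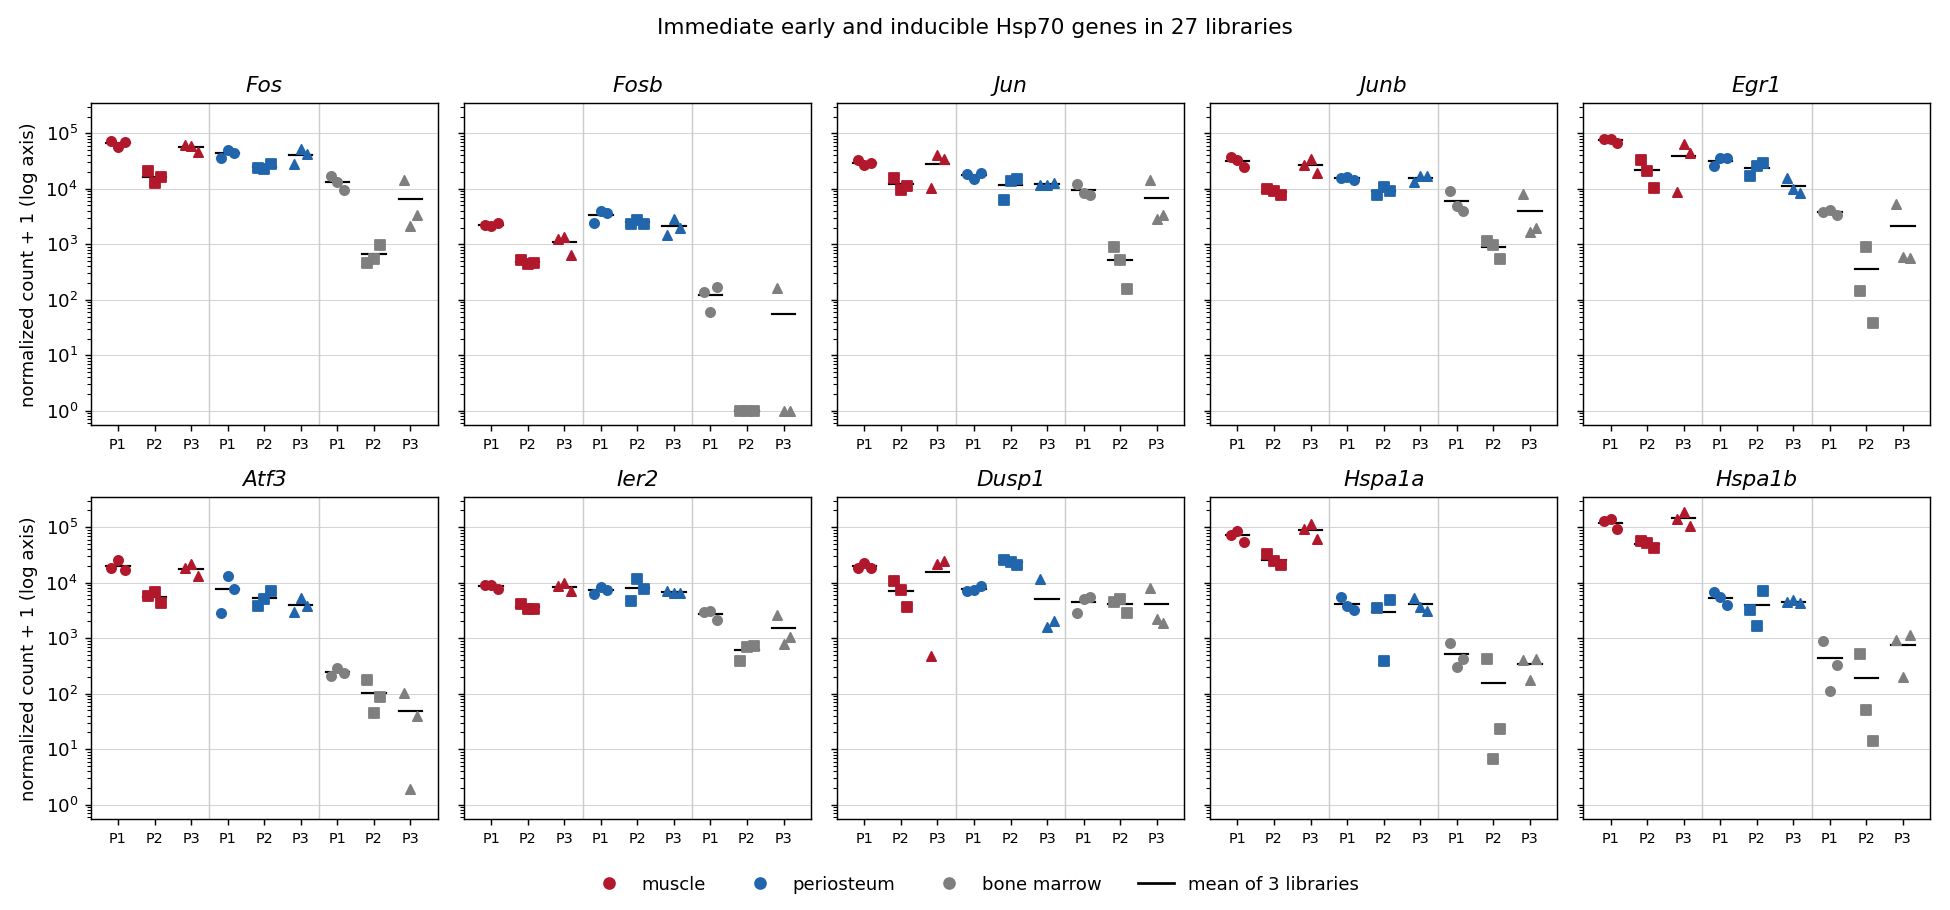
Normalized counts (plus 1, log axis) of the 10 genes in P1, P2 and P3 of muscle, periosteum and bone marrow; each point is 1 library and each line the mean of 3. Every muscle library stands above every periosteum library for Hspa1a and Hspa1b and for no other gene of the 10, and Fosb is listed at 0 in 5 bone marrow libraries.

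Averaged over the 3 subpopulations, Hspa1a was higher in muscle than in periosteum by 4.11 ± 0.55 on the log2 scale (SE, limma adjusted p = 7.8e-06) and Hspa1b by 4.44 ± 0.49 (adjusted p = 6.5e-07). A gene was called when its adjusted p was under 0.05 and its absolute log2 fold change above 1.5, and these were the 2 of the 10 called in this comparison. Across all genes 17.2% were called higher in muscle and 3.19% lower, with a median log2 fold change of 0.56. Muscle libraries lay entirely above periosteum libraries for these 2 genes, as for 0.542% of all genes tested. The call stood in each subpopulation, with mean levels of Hspa1b 22.4-fold higher in muscle P1, 12.4-fold in P2 and 31.95-fold in P3 than in the matching periosteum. For Hspa1a the corresponding folds were 17.2, 8.93 and 21.8. The Hspa1a call ended in P3 without muscle P3 library 2 (4.24, adjusted p = 0.0523), in P1 and P2 with quantile normalization (adjusted p = 0.0534 and 0.0504), and in P2 with only the compared groups fitted (adjusted p = 0.0943). Against bone marrow the log2 fold change in muscle was 8.21 ± 0.55 for Hspa1a (adjusted p = 3.9e-11) and 8.62 ± 0.49 for Hspa1b (adjusted p = 3.7e-12). Periosteum, compared with the same bone marrow libraries, was higher by 4.10 ± 0.55 for Hspa1a (adjusted p = 6.1e-06) and 4.18 ± 0.49 for Hspa1b (adjusted p = 1.1e-06).

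Markers of other cell types also moved between these tissues. Of the marker lists, 10 of 10 myofibre genes (median log2 fold change 7.42), 10 of 10 endothelial genes (2.75), 7 of 8 mural genes (3.12), 5 of 8 satellite cell genes (2.79) and 4 of 7 Schwann cell genes (2.45) were called higher in muscle than in periosteum, and 10 of 10 erythroid genes lower (-3.21). In this comparison 17.2% of all genes were called higher in muscle and 3.19% lower. The 12 limb mesenchyme genes had a median of 0.80. In muscle and periosteum 9 and 7 were called higher than in bone marrow (2.64 and 1.70), against 10.9% and 4.01% of all genes. Within P1, however, the summed share of the limb mesenchyme genes was largest in bone marrow, at 27.2% to 39.99% of a library. It was 3.83% to 4.39% in muscle P1 and 9.04% to 15.3% in periosteum P1. In P2 it was 0.765% to 1.45% in muscle, 0.163% to 0.839% in periosteum and 0.0106% to 0.0458% in bone marrow. In P3 it was 3.36% to 3.99%, 1.91% to 4.46% and 0.574% to 1.66%, in the same order. Summed over a list, myofibre genes took 0.0141% to 13.4% of a muscle library and 0.000114% to 0.00987% of a periosteum library. Endothelial genes took 0.0161% to 0.600% and 0.00287% to 0.468%, and mural genes 0.00231% to 0.767% and 0.0127% to 0.0797%. Satellite genes took 0.0110% to 0.129% and 0.0135% to 0.0557%, Schwann cell genes 0.000688% to 0.0254% and 0.00335% to 0.0178%, and erythroid genes 0.0265% to 1.62% and 0.121% to 40.5%. The satellite marker Pax7 was at 0 throughout muscle P2, periosteum P2 and periosteum P3. Within muscle, myofibre genes were lowest in P3, at 0.0141% to 0.0307%, and highest in P2, at 11.9% to 13.4%. Leukocyte genes were called lower than in bone marrow for 10 of 11 in muscle (-6.50) and 10 of 11 in periosteum (-6.06). Of all genes, 10.8% and 16.8% were called lower in these comparisons. Leukocyte genes took 0.00202% to 0.00666% of a muscle library, 0.000505% to 0.303% of a periosteum library and 0.0746% to 0.602% of a bone marrow library. The part of the myofibre, limb mesenchyme, endothelial, mural, satellite, Schwann cell, erythroid and leukocyte genes in the differences between tissues was not tested.

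As a share of all normalized counts, the Hsp70 pair took 0.340% to 2.65% of a muscle library (median 1.57%), 0.00844% to 0.0984% of a periosteum library (median 0.0673%) and 0.000200% to 0.0153% of a bone marrow library (median 0.00448%). The 8 immediate early genes together took 0.307% to 2.32% of a muscle library (median 1.79%), 0.480% to 1.10% in periosteum (median 0.886%) and 0.0307% to 0.614% in bone marrow (median 0.119%). The immediate early shares of muscle and periosteum overlapped, and the Hsp70 shares did not. Muscle P2 held the lowest immediate early shares of its tissue, 0.307% to 0.552%, and these overlapped with the periosteum P2 shares of 0.480% to 0.649%. Yet its Hsp70 share, 0.340% to 0.484%, was above that of every periosteum library.

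**Figure D2:**
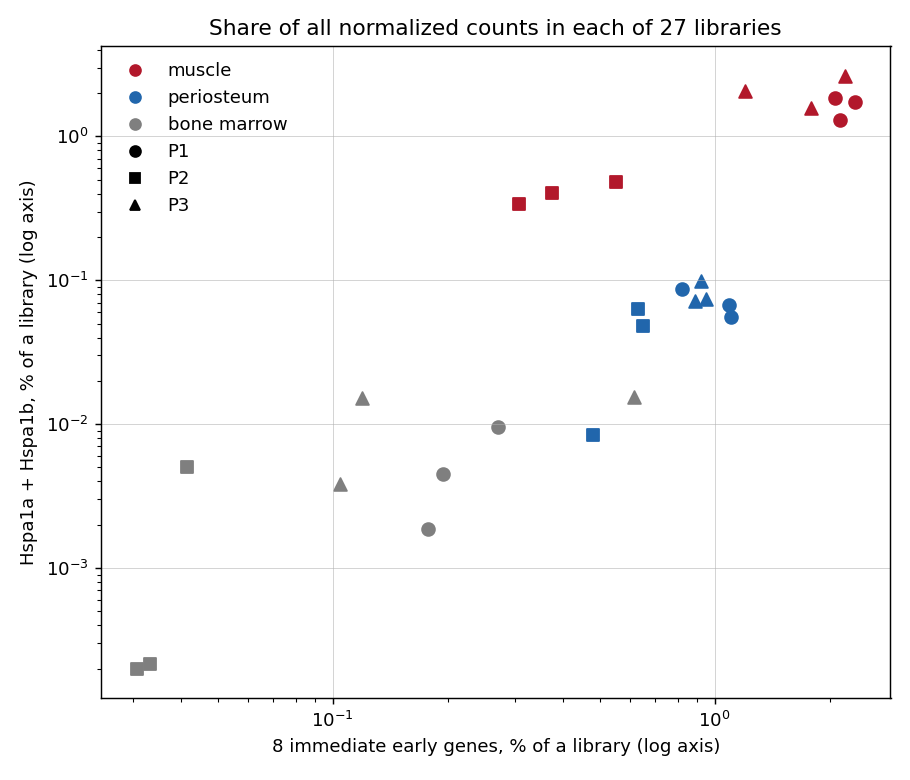
Share of a library's normalized counts in Hspa1a plus Hspa1b (vertical, log axis) against the share in the 8 immediate early genes (horizontal, log axis), 1 point for each of 27 libraries, coloured by tissue and shaped by subpopulation. Muscle at 0.340% to 2.65% lies above periosteum at 0.00844% to 0.0984% on the vertical axis, while the tissues overlap on the horizontal axis.

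The AP-1 genes were high in both digested tissues and lower in bone marrow. Fos (ENSMUSG00000021250, chr12:85473890-85477273, plus strand) encodes the Fos subunit of AP-1. Muscle libraries held 74120.5, 57791.5 and 69771 normalized counts of Fos in P1, 20554, 12801 and 16214 in P2, and 60489, 59222 and 46800.0 in P3. Periosteum libraries held 35832, 50435 and 44268 in P1, 23451, 23162 and 27761 in P2, and 28011, 51149 and 42938 in P3. Bone marrow held 17087, 13340 and 9546 in P1, 463.3, 546.3 and 979.9 in P2, and 14128, 2132 and 3383 in P3. Each periosteum library exceeded all those of bone marrow, but muscle P2 overlapped with bone marrow P1. The averaged log2 fold change of Fos was 3.54 ± 0.24 in muscle against bone marrow (adjusted p = 6.0e-11) and 3.37 ± 0.24 in periosteum against bone marrow (adjusted p = 2.9e-10). Between muscle and periosteum it was 0.17 ± 0.24 with a 95% interval of -0.33 to 0.67 (adjusted p = 0.64).

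Fosb (ENSMUSG00000003545, chr7:19302696-19310051, minus strand), a close relative of Fos, had its highest group mean in periosteum P1. Its periosteum values were 2376, 3998 and 3735 normalized counts in P1, 2346, 2715 and 2355 in P2, and 1445, 2911 and 1972 in P3. Muscle gave 2187, 2125 and 2373 in P1, 517.7, 447.7 and 452.1 in P2, and 1262, 1371 and 643.1 in P3. In bone marrow, Fosb had 139.0, 60.1 and 169.4 in P1, was listed at 0 in all 3 P2 libraries and in P3 libraries 2 and 3, and had 163.7 in P3 library 1. The lowest muscle library was above the highest bone marrow library. Within P1, where every library had a value above 0, Fosb was higher than in bone marrow by 4.30 ± 1.13 in muscle (adjusted p = 0.015) and 4.86 ± 1.13 in periosteum (adjusted p = 0.011). Both P1 calls were lost with a pseudocount of 0.1 (adjusted p = 0.115 and 0.0830) or without bone marrow P1 library 2 (adjusted p = 0.0836 and 0.0637), and the muscle call also without muscle P1 library 3 (adjusted p = 0.052). Over all subpopulations Fosb was called higher in both tissues than in bone marrow, but its fitted change there depends on the pseudocount and no fold is given. The difference between muscle and periosteum was -1.30 ± 0.65 (adjusted p = 0.15).

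Jun (ENSMUSG00000052684, chr4:95049034-95052222, minus strand), the partner that can also pair with itself, ranged from 9358 to 40611 normalized counts in muscle (median 26293), 6312 to 19387 in periosteum (median 13560) and 154.4 to 14480 in bone marrow (median 3387). Junb (ENSMUSG00000052837, chr8:84974484-84978718, minus strand), a related subunit with weaker activity, ranged from 7651 to 37718 in muscle (median 25073), 7787 to 17164 in periosteum (median 14636) and 542.3 to 9231 in bone marrow (median 1999.5). For both genes the tissues overlapped, since bone marrow P1 and bone marrow P3 library 1 reached into the range of muscle P2 and periosteum P2. The averaged log2 fold change over bone marrow was 2.92 ± 0.32 for Jun (adjusted p = 1.8e-07) and 2.99 ± 0.23 for Junb (adjusted p = 5.7e-10) in muscle, and 2.29 ± 0.32 (adjusted p = 1.2e-05) and 2.42 ± 0.23 (adjusted p = 4.0e-08) in periosteum. Jun's call in periosteum was lost when P2 was left out (1.09, adjusted p = 0.054). Muscle and periosteum differed by 0.62 ± 0.32 for Jun (adjusted p = 0.16) and 0.57 ± 0.23 for Junb (adjusted p = 0.075), neither of which passed.

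Egr1, Atf3 and Ier2 were each higher in muscle and in periosteum than in bone marrow. Egr1 (ENSMUSG00000038418), a zinc finger transcription factor, had 78622, 77541 and 67702 normalized counts in muscle P1, 33003, 21221 and 10356 in P2, and 8647, 64181 and 43794 in P3. Periosteum had 25387, 35399 and 35873 in P1, 17181, 25314 and 29155 in P2, and 15477, 10041 and 8375 in P3, and bone marrow had 3763, 4150 and 3362 in P1, 143.8, 897.7 and 36.8 in P2, and 5254, 593.9 and 567.4 in P3. Bone marrow did not overlap with either digested tissue. Egr1 was 5.24 ± 0.48 higher in muscle (log2, adjusted p = 9.7e-09) and 4.45 ± 0.48 higher in periosteum (adjusted p = 2.7e-07) than in bone marrow.

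Atf3 (ENSMUSG00000026628, chr1:191170296-191218039, minus strand), a stress-responsive repressor of the ATF family, had the widest separation from bone marrow of the immediate early genes listed above 0 in all libraries. It ranged from 4364 to 25905 normalized counts in muscle, 2798 to 13017 in periosteum and 0.945 to 285.1 in bone marrow, with medians of 16749, 5092 and 101.9. The log2 fold change over bone marrow was 7.37 ± 0.49 in muscle (adjusted p = 4.2e-11) and 6.08 ± 0.49 in periosteum (adjusted p = 2.3e-09), and the 1.29 ± 0.49 between muscle and periosteum did not pass (adjusted p = 0.058). Ier2 (ENSMUSG00000053560, chr8:84661331-84662852, minus strand), a small nuclear protein, ranged from 3304 to 9678 in muscle, 4653 to 11418 in periosteum and 389.9 to 3062 in bone marrow, with no overlap between bone marrow and the others. Its change over bone marrow was 2.32 ± 0.20 in muscle (adjusted p = 4.2e-09) and 2.49 ± 0.20 in periosteum (adjusted p = 2.8e-09). Between muscle and periosteum it was -0.16 ± 0.20, with a 95% interval of -0.59 to 0.26 (adjusted p = 0.58).

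Dusp1 (ENSMUSG00000024190, chr17:26505590-26562128, minus strand), the phosphatase of the group, did not follow the others. It had 18446, 22466 and 18641 normalized counts in muscle P1, 10576, 7477 and 3619 in P2, and 467.5, 21631 and 24333 in P3. Periosteum had 7021, 7237 and 8592 in P1, 25208, 23730 and 20984 in P2, and 11422, 1568 and 2078 in P3, and bone marrow had 2787, 5049 and 5572 in P1, 4536, 5083 and 2896 in P2, and 8107, 2232 and 1861 in P3. The highest mean was in periosteum P2, and in the order of the 9 group means every pair of neighbours overlapped. Dusp1 was 1.29 ± 0.54 higher in muscle (log2, adjusted p = 0.082) and 1.13 ± 0.54 higher in periosteum (adjusted p = 0.13) than in bone marrow, and was not called in either. The muscle value rested on single libraries, since it was called without muscle P3 library 1 (1.91, adjusted p = 0.00013) and without bone marrow P3 library 1 (1.51, adjusted p = 0.0473). Over all alternatives tried for this comparison the adjusted p ran from 1.6e-05 to 0.20.

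Of the 10 genes, 9 were thus called higher in muscle than in bone marrow, where 10.9% of all genes were, and 9 higher in periosteum than in bone marrow, where 4.01% of all genes were. Dusp1 was the exception in both, and no member was lower, against 10.8% and 16.8% of all genes. The median log2 fold change of the 10 was 4.39 in muscle over bone marrow (all genes -0.10) and 3.73 in periosteum over bone marrow (all genes -0.69), against 0.60 between muscle and periosteum (all genes 0.56). These comparisons share libraries and are given side by side. Libraries did not overlap with bone marrow for Fosb, Egr1, Atf3, Ier2, Hspa1a and Hspa1b in muscle, as for 2.69% of all genes, and for Fos, Fosb, Egr1, Atf3, Ier2 and Hspa1b in periosteum, as for 0.645%. Without the P2 groups, the counts of members called were 2 for muscle against periosteum, 9 for muscle against bone marrow and 8 for periosteum against bone marrow. The share of all genes called in that fit is not given here, and the shares above belong to the fit with P2.

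**Figure D3:**
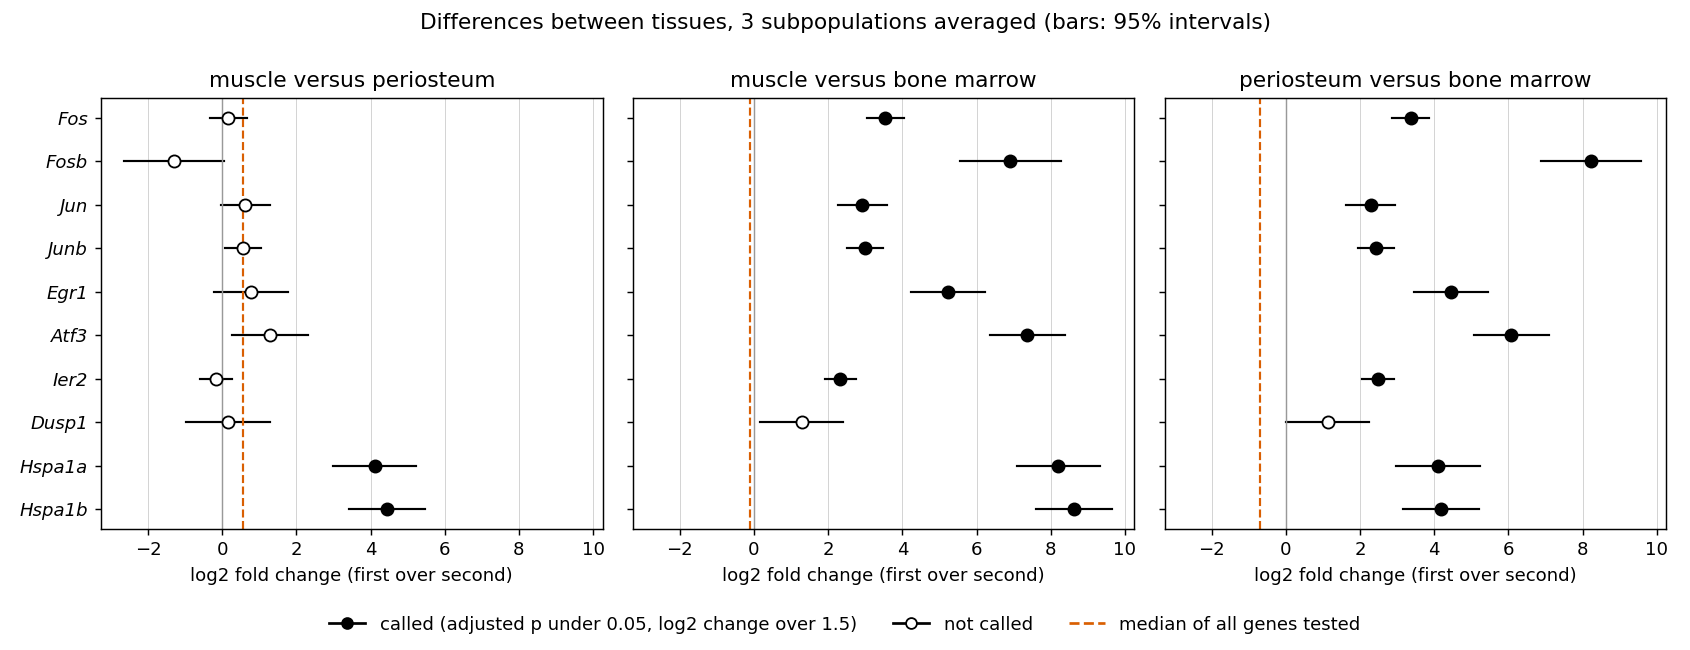
Log2 fold changes of the 10 genes between tissues, averaged over the 3 subpopulations, with 95% intervals; filled points were called and the dashed line is the median of all genes tested. Muscle and periosteum differ for Hspa1a (4.11) and Hspa1b (4.44), whereas 9 genes are called over bone marrow in each of the other panels; the fitted change of Fosb over bone marrow depends on the pseudocount.

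Per kilobase of exon, Hspa1b led in muscle P1 with a mean of 42850 normalized counts, followed by Fos at 28583, Hspa1a at 23891 and Egr1 at 16642. In periosteum P1 the leading gene was Fos at 18499.9 per kilobase, with Egr1 at 7186 and Junb at 6744, and Hspa1b and Hspa1a came after all the immediate early genes but Fosb, at 1914 and 1391. In bone marrow P1 Fos again led, at 5665, ahead of Jun at 2931 and Junb at 2611, whereas Hspa1a and Hspa1b stood at 173.9 and 156.4. Fosb was the lowest of the 10 in each of these groups, at 357.0, 539.8 and 19.7 per kilobase. Fos thus had the highest level per kilobase of the 8 immediate early genes in P1 of all 3 tissues.

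Within P1, 8 members were called higher in muscle than in bone marrow (background 5.40%) and 5 higher in periosteum than in bone marrow (1.91%), the latter being Fos, Fosb, Egr1, Atf3 and Hspa1b. Within P2 these counts were 9 (14.1%) and 9 (4.65%), and within P3 they were 9 (6.14%) and 8 (2.95%). In each subpopulation the Hsp70 pair alone was called between muscle and periosteum, against backgrounds of 4.34%, 17.6% and 2.65%. Several of these calls ended when 1 library was left out. Within P1, periosteum over bone marrow, that of Egr1 (3.09 ± 0.84, adjusted p = 0.030) ended without any 1 of the 6 libraries compared (adjusted p = 0.0618 to 0.1003), that of Fos (1.73 ± 0.42, adjusted p = 0.014) without bone marrow P1 library 3 (adjusted p = 0.0893), and that of Hspa1b (4.05 ± 0.86, adjusted p = 0.0052) without bone marrow P1 library 2 (adjusted p = 0.0506). The calls of Fosb within P1 are given above. Within P3, Hspa1b in periosteum over bone marrow (2.93 ± 0.86, adjusted p = 0.037) was lost without bone marrow P3 library 2 (2.15, adjusted p = 0.24) or any 1 of the 3 periosteum P3 libraries (adjusted p = 0.0553 to 0.105). Hspa1a in the same comparison was lost without bone marrow P3 library 2 (adjusted p = 0.105) or periosteum P3 library 2 (adjusted p = 0.0508). Egr1 there was lost without bone marrow P3 library 2 or 3 (adjusted p = 0.134 and 0.126) or periosteum P3 library 1 or 2 (adjusted p = 0.0593 and 0.0555). Jun in muscle P3 over bone marrow P3 was lost without library 2 or 3 of bone marrow P3 (adjusted p = 0.0806 and 0.0624) or of muscle P3 (adjusted p = 0.0664 and 0.0509).

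Whether the tissue difference changed between subpopulations was tested with an F test over the interaction. In periosteum against bone marrow it changed for Fos (adjusted p = 0.0012), Jun (0.0041), Ier2 (0.017), Fosb (0.035) and Egr1 (0.042), where 7.85% of all genes did. The gap was widest in P2 for each of them. For Fos the log2 fold changes in P1, P2 and P3 were 1.73, 5.29 and 3.08, for Jun 0.93, 4.70 and 1.24, for Ier2 1.43, 3.67 and 2.36, and for Egr1 3.09, 7.10 and 3.17, while bone marrow P2 had Fosb at 0 throughout. In muscle against bone marrow the difference changed for Jun (adjusted p = 0.010), Fos (0.018) and Atf3 (0.038), where 23.8% of all genes did. Fos and Jun were again widest in P2, at 4.69 and 4.82, but Atf3 was widest in P3 at 9.75, against 6.37 in P1 and 5.97 in P2. No member changed in muscle against periosteum, where 13.3% of all genes did, and the lowest adjusted p was 0.089 for Ier2. The bone marrow P2 libraries are those with 46.2% to 49.7% of their counts in erythroid genes.

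The subpopulations of bone marrow differed for most members. P1 was above P2 for 7 genes (background 10.4% higher), namely Fos, Fosb, Jun, Junb, Egr1, Ier2 and Hspa1a. The mean of Fos was 20.1-fold higher in P1 (log2 4.36 ± 0.42, adjusted p = 3.7e-08), that of Jun 17.9-fold (4.46 ± 0.56, adjusted p = 1.7e-06) and that of Egr1 10.5-fold (4.46 ± 0.84, adjusted p = 0.00028). For Fosb no fold is given, since P2 was listed at 0. The Hspa1a call (3.54 ± 0.94, adjusted p = 0.0057) ended without bone marrow P2 library 2 (2.24, adjusted p = 0.0551). P2 was below P3 for Fos, Jun, Junb, Egr1, Hspa1a and Hspa1b, where 5.38% of all genes were lower. These calls rested partly on bone marrow P3 library 1, which had 14128 normalized counts of Fos against 2132 and 3383 in its replicates, 14480 of Jun against 2819 and 3387, and 5254 of Egr1 against 593.9 and 567.4. Without it Fos and Jun were still called, and Junb (-1.11, adjusted p = 0.021), Egr1 (-1.77, adjusted p = 0.15), Hspa1a (-2.76, adjusted p = 0.086) and Hspa1b (-2.75, adjusted p = 0.058) were not. Leaving out 1 library also ended the call of Egr1 (P2 libraries 1 and 3, adjusted p = 0.059 and 0.18), Hspa1a (P2 libraries 2 and 3 and P3 library 3, adjusted p = 0.20, 0.13 and 0.097) and Hspa1b (P2 library 3 and P3 library 3, adjusted p = 0.14 and 0.074). P1 was above P3 for Fosb and Atf3 (background 3.46%), and the Atf3 value, 3.59 ± 0.85 (adjusted p = 0.0085), fell to 1.91 (adjusted p = 0.055) without P3 library 2, where Atf3 was at 0.945. The Fosb value, whose P3 libraries 2 and 3 were listed at 0, was lost without any 1 of 4 of the 6 libraries compared (adjusted p = 0.0665 to 0.162). Limb mesenchyme markers fell from 27.2% to 39.99% of the total in P1 to 0.574% to 1.66% in P3, and their part in these differences was not tested.

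In muscle, P2 was the low subpopulation. Fos was 4.07-fold higher in P1 than in P2 (log2 2.04 ± 0.42, adjusted p = 0.0022) and Junb 3.59-fold (1.83 ± 0.40, adjusted p = 0.0042), where 3.58% of all genes were higher. Both were also lower in P2 than in P3, Fos by 1.77 ± 0.42 (adjusted p = 0.0057) and Junb by 1.55 ± 0.40 (adjusted p = 0.012), where 5.60% of all genes were lower. For Junb the latter call ended without muscle P2 library 3 (-1.44, adjusted p = 0.0487) or muscle P3 library 2 (-1.35, adjusted p = 0.071). The means of Hspa1a and Hspa1b were 2.71-fold and 2.42-fold higher in P1 than in P2, but the differences did not pass (adjusted p = 0.45 and 0.47). P1 and P3 of muscle did not differ for any member in the limma test, and 0 of the 10 reached an unadjusted p under 0.05, with 0.466% of all genes called. Muscle P3 library 1 was low for Dusp1 (467.5 against 21631 and 24333), Egr1 (8647 against 64181 and 43794) and Jun (10510 against 40611 and 33848), yet it was not low for Fos, Junb, Atf3, Ier2 or the Hsp70 pair. Without it and bone marrow P3 library 1, the members called between muscle subpopulations rose from 4 to 8. The share of all genes called without these libraries is not given here.

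The subpopulations of periosteum differed in 1 call, Dusp1 in P2 over P3, with 2.80 ± 0.94 (adjusted p = 0.042, background 7.79% higher). No member was called between P1 and P2 or between P1 and P3 in the limma test, where 19.1% and 4.18% of all genes were, and 0 reached an unadjusted p under 0.05 in either. The Dusp1 call was lost when any of 5 of the 6 libraries compared was left out, P3 library 1 being the exception, and over all alternatives the adjusted p ran from 0.00054 to 0.25. For Fos, the largest difference was 0.80 ± 0.42 between P1 and P2 (adjusted p = 0.19). The P2 gate of periosteum held 25.2% to 40.5% erythroid counts, as given above, and its immediate early share of 0.480% to 0.649% lay below the 0.823% to 1.10% of P1 and the 0.886% to 0.950% of P3. Dusp1 had a P2 mean 3.06-fold that of P1 and 4.64-fold that of P3.

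**Figure D4:**
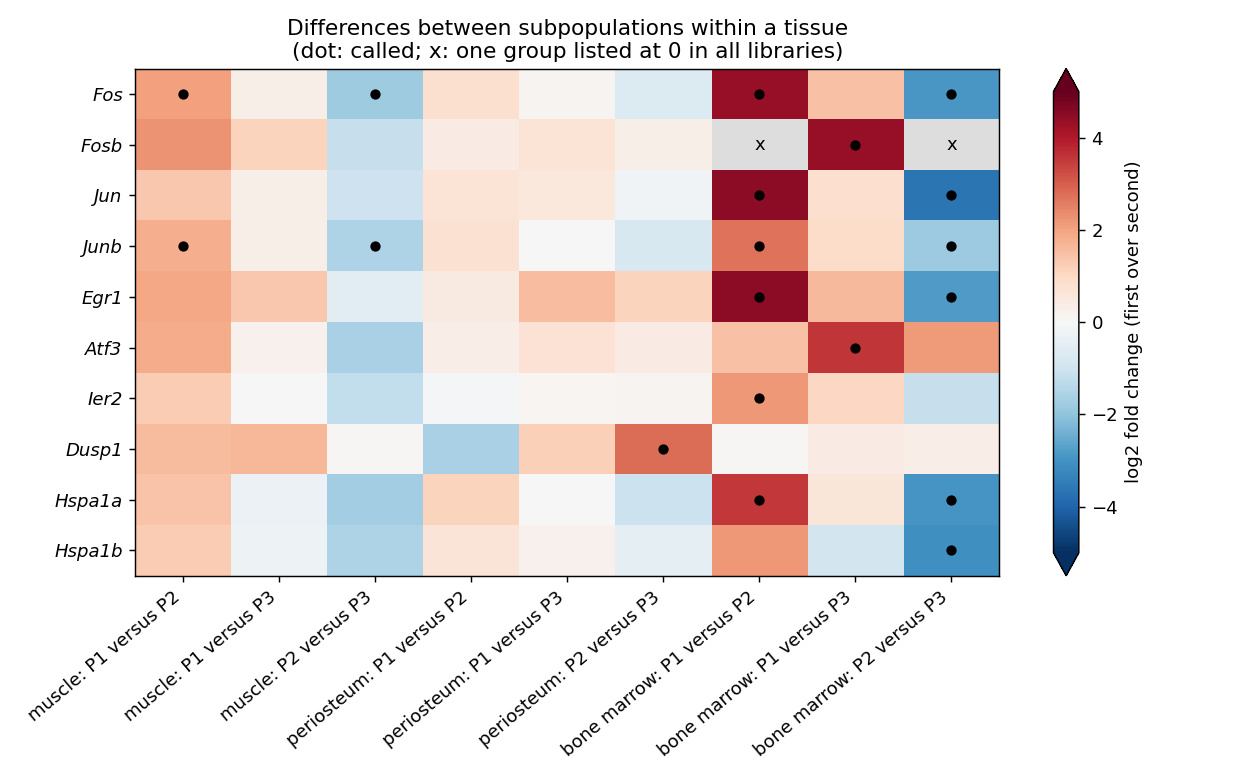
Log2 fold changes (colour) of the 10 genes between subpopulations within each tissue; dots mark calls, and an x on grey marks Fosb where bone marrow P2 was listed at 0 in all libraries. Bone marrow has 7, 2 and 6 calls in its 3 comparisons, Fosb under the first x among the 7, against 4 in all in muscle and 1 in periosteum.

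Other immediate early genes were also higher in the digested tissues than in bone marrow. A list of other immediate early genes had 36 of its 38 members tested, and 26 were called higher in muscle than in bone marrow and 23 higher in periosteum than in bone marrow, against 10.9% and 4.01% of all genes. None was lower, against 10.8% and 16.8%. The nuclear receptor Nr4a1 ranged from 2812 to 17657 normalized counts in muscle (median 8232), 998.3 to 5013 in periosteum (median 2982) and 0 to 386.1 in bone marrow (median 48.1). Csrnp1, a nuclear protein, was 7.28 ± 0.56 higher in muscle and 6.10 ± 0.56 higher in periosteum on the log2 scale (adjusted p = 4.6e-10 and 1.7e-08). Ier3, a survival factor, was higher by 4.69 ± 0.26 and 4.60 ± 0.26 (adjusted p = 2.6e-12 and 6.2e-12), and Zfp36, which destabilizes mRNAs with AU-rich elements, by 4.13 ± 0.27 and 3.13 ± 0.27 (adjusted p = 3.4e-11 and 6.5e-09). The pluripotency factor Klf4 was higher by 3.41 ± 0.30 and 3.69 ± 0.30 (adjusted p = 4.6e-09 and 2.6e-09). Egr2 ranged from 59.9 to 1017 normalized counts in muscle, 252.1 to 1406 in periosteum and 0 to 19.1 in bone marrow. Btg2 ranged from 3323 to 28212 in muscle, 889.7 to 20519 in periosteum and 1045 to 13998 in bone marrow. Its medians were 22372, 7354 and 1961, and the ranges of the tissues overlapped. Between muscle and periosteum 4 of the list were higher, Nr4a3 (3.02 ± 0.72, adjusted p = 0.0037), Cebpd, Klf9 and Tnfaip3, against 17.2% of all genes. Ctgf, a matricellular growth factor, was lower (-1.52 ± 0.23, adjusted p = 4.1e-05), against 3.19% of all genes. The list's median was 0.27 in that comparison, below the 0.56 of all genes.

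Of 15 other AP-1 family genes, 4 were higher in muscle than in bone marrow (10.9% of all genes), led by Fosl1 (6.13 ± 0.71, adjusted p = 4.3e-07) and including Fosl2 (2.81 ± 0.47, adjusted p = 6.2e-05). The same number were higher in periosteum (4.01% of all genes), where Mafg was lower (-1.99 ± 0.59, adjusted p = 0.015), against 16.8% of all genes. Between muscle and periosteum the sole call of the 15 was Atf7, at 1.93, against 17.2% of all genes called higher. Jund, a constitutive Jun subunit, was not called in any pair of tissues, with log2 fold changes of -0.93 ± 0.42 in muscle and -0.62 ± 0.42 in periosteum over bone marrow (adjusted p = 0.10 and 0.29).

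Of 27 other heat shock genes, 9 were called higher in muscle than in periosteum, where 17.2% of all genes were, and 13 higher in muscle than in bone marrow, where 10.9% were. In periosteum over bone marrow 4 were higher, against 4.01% of all genes, and Hspa4l was lower, against 16.8%. The list's medians were 1.13, 1.34 and 0.78, against 0.56, -0.10 and -0.69 for all genes. Hspb1, a small heat shock protein, ranged from 3718 to 32211 normalized counts in muscle (median 15258), 8.73 to 4113 in periosteum (median 1008) and 2.93 to 497.0 in bone marrow (median 114.0). It was 4.36 ± 0.66 higher in muscle than in periosteum (adjusted p = 3.5e-05), after Hspb6 at 5.13 ± 0.69 (adjusted p = 8.4e-06) and before the Hsp110 gene Hsph1 at 3.85 ± 0.67 (adjusted p = 0.00020). Hspb6, Hspb8 and Cryab, which were among the 9, are also expressed by muscle fibres. Hspa8, the constitutive Hsp70, was 1.13 ± 0.15 higher in muscle than in periosteum (adjusted p = 5.3e-06), under the limit for a call, the Hsp40 gene Dnajb1 1.27 ± 0.21 (adjusted p = 0.00015), and Hsp90aa1 0.53 ± 0.24 (adjusted p = 0.11). Hsf1, the factor that turns these genes on, had 0 to 238.9 normalized counts in muscle, 0 to 363.4 in periosteum and 0 to 141.1 in bone marrow and was not called (1.58 ± 1.43 in muscle over periosteum, adjusted p = 0.44).

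**Figure D5:**
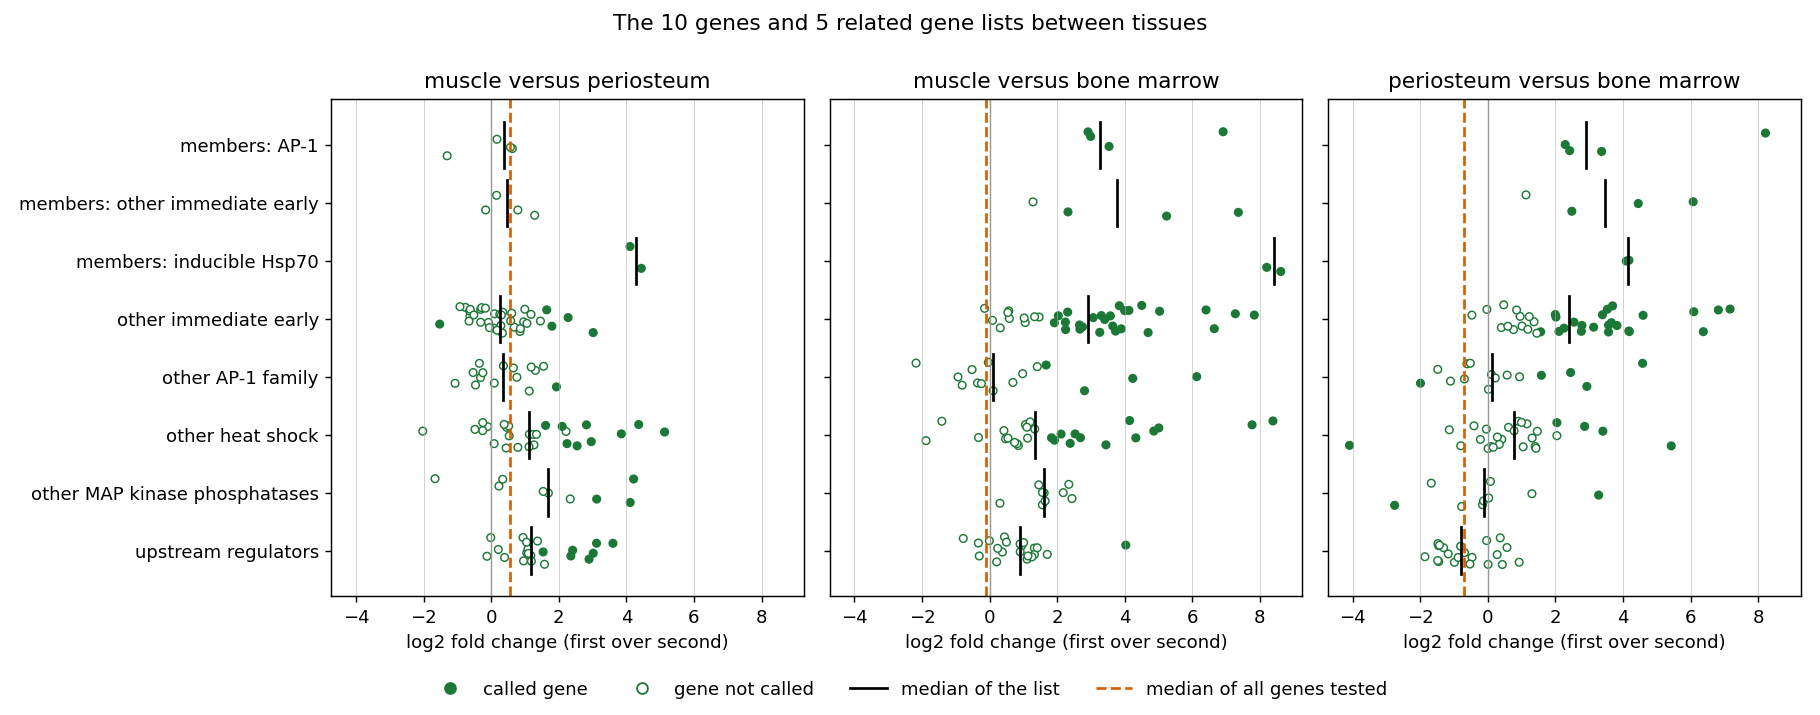
Log2 fold changes of the 10 genes (top 3 lines) and of 5 related lists between tissues; filled points were called, black bars are list medians and the dashed line is the median of all genes. Over bone marrow, 26 and 23 of 36 other immediate early genes are called higher in muscle and periosteum, and between muscle and periosteum 9 of 27 other heat shock genes are.

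Across the 27 libraries, the genes most like the mean standardized log2 profile of the 8 immediate early members were Tubb6 (Pearson's r = 0.95), Aebp1 (0.94), Gadd45g (0.94), Nfkbia (0.94) and Bhlhe40 (0.93). Gadd45g and Nfkbia are in the list of other immediate early genes. For the Hsp70 pair they were Entpd2 (0.92), C1s1 (0.91), Hspa8 (0.91), Apod (0.91) and Ptrf (0.90). These values describe libraries that share 3 tissues, and 160 and 110 genes reached r of 0.8 or more. Among the members, Fos and Junb (0.96), Fos and Ier2 (0.96) and Hspa1a and Hspa1b (0.98) went most closely together, whereas Dusp1 reached at most 0.58, with Egr1.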

How the data were processed

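RNA of sorted Prx1 cells was amplified with SMART-Seq v4 and made into Nextera XT libraries, per the labels. The authors trimmed reads with Trim Galore, aligned them with STAR and used DESeq2. The deposited table holds normalized counts, a signal scaled between libraries by the authors, for 27 libraries; the genome build, annotation and counting tool are not given in the sources used here. The values were not whole reads: 9.77% to 86.6% of low values per library lay within 0.02 of a whole number of estimated read steps, so read depth is unknown and no count model or counting interval was used. All columns belonged to a labelled sample (0 left over).

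Entries without a symbol (3) and a transgene (1) were left out of 30154. The 18439 genes with at least 10 in at least 3 libraries were tested as log2(normalized count + 1) with limma 3.58.1 in R 4.3.3 (lmFit, eBayes with trend, 1 mean per group over all 9 groups, Benjamini-Hochberg adjustment over all genes tested); fold changes of low genes are understated on this scale. Tissue comparisons average P1, P2 and P3, and F tests asked whether they changed between subpopulations. Errors are SE; 21 single comparisons and 3 F tests were fitted. In simulated data for muscle versus periosteum with 200 of 18439 genes changed by 3 on the log2 scale, 122 were recovered and 5 other genes were called. Of the 70 changed genes with a mean log2 level above 7, 53 were recovered, with a median fitted change of 2.99. Unchanged genes there had equal means in both tissues and independent normal noise. The 5 calls therefore do not cover an offset such as the median of 0.56 over all genes in these data.

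The genes and lists were chosen with earlier results of these data known. Genes outside the 10 are named by rule: up to the 4 called genes of each list with the largest change in each pair of tissues, 15 set by name, and the 5 whose profile was most like the members. Ctgf was named after its values were seen. Libraries with the same replicate number did not deviate together (mean r 0.000238 over 36 pairs of groups, pair means -0.0592 to 0.0501), so numbers were not used as pairs. Positions are from GENCODE M21 (GRCm38, 29808 identifiers matched) and promoters from RefSeq (GRCm38.p6). The promoters of Egr1 and Ier2 were not used here. Alternatives covered the pseudocount, filter, scaling, replicate block, variance trend, libraries in the fit, limit on the fold change and each library left out, and 2 added after seeing the data: without P2, and with neither P3 library 1 of muscle nor of bone marrow. Python 3.11.15, numpy 2.4.6, pandas 2.3.3 and matplotlib 3.10.9 were used for levels and figures.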

Additional observations from a re-analysis of the deposited data

Results flagged for a closer look

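For 8 results the size of a tissue difference was not the same in P1, P2 and P3 by the F test of limma with adjustment over all genes. In muscle against bone marrow these were Fos (adjusted p = 0.018), Jun (0.010) and Atf3 (0.038), where 23.8% of all genes changed. In periosteum against bone marrow they were Fos (adjusted p = 0.0012), Fosb (0.035), Jun (0.0041), Egr1 (0.042) and Ier2 (0.017), where 7.85% of all genes changed. The differences share the bone marrow libraries, so they are not independent of one another. Groups of 3 libraries were not tested for outlying samples.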

How the results depend on the processing

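Over the 39 alternatives, Hspa1a and Hspa1b were called higher in muscle than in periosteum in each (log2 3.73 to 4.34 and 4.27 to 5.02). Leaving out 1 library gave 2 to 2 members called for muscle against periosteum, 9 to 10 for muscle and 9 to 9 for periosteum against bone marrow, 12 to 17 between tissues within P1, 20 to 22 within P2 and 16 to 21 within P3. The range was 3 to 6 between subpopulations of muscle (4 with all libraries), 0 to 2 in periosteum (1) and 12 to 16 in bone marrow (15). Members whose tissue difference changed between subpopulations numbered 0 to 2 for muscle against periosteum (0), 1 to 5 for muscle against bone marrow (3) and 3 to 7 for periosteum against bone marrow (5). With other settings, the calls between subpopulations of muscle became 9 with each library rescaled to 1 sum, with or without globin genes, 7 after quantile normalization, 10 with only the compared groups fitted and 8 with neither P3 library 1. Those of periosteum became 0 with a pseudocount of 0.1, no filter, rescaling without globins, quantile normalization, the replicate block, no variance trend or only the compared groups, and 2 with neither P3 library 1. Fitting only the compared groups, with fewer libraries to estimate the spread, gave 12 within P3 (19) and 8 in bone marrow (15). F-test counts for muscle against bone marrow were 1 with either rescaling, quantile normalization or no trend, and 5 with neither P3 library 1. For periosteum against bone marrow they were 2 with rescaling without globins or only the compared groups, and 3 with quantile normalization or no trend. For muscle against periosteum they were 1 with rescaling without globins, quantile normalization or neither P3 library 1, and 2 with only the compared groups. The cause of these shifts was not tested, and the shares of all genes called under the alternatives are not given here. The replicate block, on numbers that do not pair the libraries, left 9, 9 and 2 members called between tissues. Apart from the periosteum count, which fell from 1 to 0 as given above, it moved no other count by over 1.5 times. The sign of Dusp1 between muscle and periosteum (0.16) turned without muscle P3 library 2 (-0.14) or 3 (-0.17) or periosteum P3 library 2 (-0.024). Its value was 0.78 without muscle P3 library 1 and ran from -0.17 to 1.15 over all 39 alternatives. The sign of Ier2 in the same comparison (-0.16) turned without P2 (0.29). None of these passed. Rescaling to 1 sum moved the median of all genes in muscle over bone marrow from -0.10 to 0.09 on the log2 scale, and quantile normalization moved it from 0.56 to -0.014 in muscle over periosteum, less than the changes of the members called. Read depth is unknown, so how far counting error limits values near 0, such as Fosb in bone marrow, cannot be stated.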

Other observations

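Of a list of 21 upstream regulators of these genes, among them kinases and transcription factors, 7 were higher in muscle than in periosteum, where 17.2% of all genes were. They were led by the kinase Map3k8 (log2 3.60 ± 0.72, limma adjusted p = 0.00079), the heat shock factor Hsf2 (3.12 ± 0.96, adjusted p = 0.020), Crem (3.02 ± 0.83, adjusted p = 0.010) and the MAP kinase kinase Map2k1 (2.90 ± 0.33, adjusted p = 9.8e-07), and included Srf (2.41 ± 0.80, adjusted p = 0.030). Srf was low, at 33.8 to 378.3 normalized counts in muscle and 0 to 364.0 in periosteum, and these ranges overlapped. In muscle over bone marrow Map3k8 was the sole call of the list, higher by 4.03 ± 0.72 (adjusted p = 0.00012). Of all genes, 10.9% were called higher and 10.8% lower there. The list's median in periosteum over bone marrow was -0.80, close to the -0.69 of all genes.

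Of 10 other MAP kinase phosphatases, 9 were tested. Dusp16 (4.21 ± 0.79, adjusted p = 0.00043), Dusp14 (4.11 ± 1.12, adjusted p = 0.0095) and Dusp10 (3.12 ± 1.10, adjusted p = 0.041) were higher in muscle than in periosteum, against 17.2% of all genes. In periosteum relative to bone marrow, Dusp5 was higher (3.28 ± 0.75, adjusted p = 0.0024), against 4.01% of all genes. Dusp16 was lower there (-2.76 ± 0.79, adjusted p = 0.012), against 16.8%. Dusp6, which acts on ERK, was not called in any pair of tissues (1.65 ± 0.71 in muscle over bone marrow, adjusted p = 0.090).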
